A study of Mus musculus with 21 samples.

Results

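Fap encodes fibroblast activation protein, and the RNA of infarcted mouse hearts was compared here between animals with and without a working Fap gene. The comparison asks what the loss of Fap changes in the heart after infarction. The 8 samples were chosen by their titles from the 21 of the series. All 8 come from the border zone, as the labels name the tissue that adjoins an infarct, and were taken at day 7 after myocardial infarction (MI). 4 carried the genotype labelled FapKO and are called knockout hearts, and 4 carried the genotype WT and are called MI hearts. No agent other than the infarction is labelled for either group. The other 7 hearts of the series, all of genotype WT, were 3 labelled sham and 4 labelled MI+FAPI. FAPI is read as an inhibitor of Fap from the series title, without a named compound or dose in the labels. These 7 hearts entered the same fit, and their levels are given where they help to place a value. The 6 libraries of cultured fibroblasts were not used.

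Strain, sex, age, the way the infarct was made, the knockout allele and the cells in which it is active are not named in the labels or series text. Neither do they say whether each library came from a separate animal, so the p-values stand for spread among these libraries, part of which may be technical. Libraries of the knockout hearts held 24519009 to 30571068 counts and those of the MI hearts 18474138 to 25927151. Values are CPM, counts per 1000000 of a library's counts after TMM scaling. They are given in the order of replicates 1 to 4 of each group, to which the labels give no meaning beyond a name. Differences are log2 fold changes of knockout minus MI with their standard errors (SE). Adjusted p-values come from edgeR's quasi-likelihood F test with Benjamini-Hochberg adjustment over all 17064 genes tested, and a gene passed, or rose or fell, at an adjusted p under 0.05.

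Fap is a serine protease on the surface of fibroblasts that have been activated by injury, and it cuts peptides after proline. B-type natriuretic peptide (BNP, from the gene Nppb) is made by stretched heart muscle cells, binds the receptor encoded by Npr1 and raises cyclic GMP in its target cells. The series title links Fap to this peptide: it names Fap inhibition, cardiac repair and the stabilisation of BNP. In the first week after an infarct, neutrophils and monocytes enter the damaged muscle, macrophages clear dead cells, and fibroblasts lay down collagen, while surviving cardiomyocytes of the border zone lose part of their adult programme of contraction and fatty acid use. A protease that acts on a peptide need not change the RNA of that peptide, so the RNA of the whole natriuretic system is described first.

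Fap RNA was low in every knockout heart. Fap was 2.19, 2.32, 2.36 and 1.79 CPM in the knockout hearts and 11.1, 13.2, 9.396 and 10.98 CPM in the MI hearts, with no overlap, and was 5.15-fold lower (log2 fold change -2.36, SE 0.16, adjusted p = 6.94e-08). The knockout values lay below those of the sham hearts too, which had 2.71 to 3.86 CPM. The deleted part of the gene is not given, so whether the counts left in knockout hearts lie outside it was not tested. The targeted gene matched the label in all 4 knockout hearts.

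Nppb and Nppa did not separate the genotypes. Nppb was 49.3, 114, 63.9 and 213 CPM in the knockout hearts and 49.8, 25.2, 147 and 71.9 CPM in the MI hearts. Replicates of 1 group differed by more than 4 times, the groups overlapped, and the test was not passed (log2 fold change 0.59, SE 0.48, adjusted p = 0.322). Without MI replicate 3, the MI heart with the highest value, Nppb passed with a log2 fold change of 1.17 and an adjusted p of 0.0401. Nppa, which encodes the atrial peptide ANP, had 729.9, 773, 626 and 583 CPM against 778, 610.2, 752 and 282 CPM and did not pass either (log2 fold change 0.16, adjusted p = 0.656). Nppc, the gene of the C-type peptide, was low in both groups, with 0.172, 0.1703, 0.147 and 0.117 CPM in the knockout hearts and 0.402, 0.387, 1.84 and 0.347 CPM in the MI hearts (log2 fold change -2.26, adjusted p = 0.00774). The groups did not overlap, but MI replicate 3 stood above the other MI hearts, and without it the log2 fold change was -1.30 (adjusted p = 0.0414).

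Corin was the member of the system that rose most clearly above a level of 10 CPM. Its product is the cardiomyocyte protease that cuts the ANP precursor. Corin had 24.9, 24.02, 29.9 and 25.3 CPM in the knockout hearts and 5.94, 4.87, 17.3 and 10.2 CPM in the MI hearts, which did not overlap (log2 fold change 1.45, SE 0.30, adjusted p = 0.000775). Furin, a general precursor protease, had 15.1 ± 2.12 CPM (SD, n = 4) against 17.8 ± 0.947 CPM, and did not pass (log2 fold change -0.24, adjusted p = 0.0747), except without knockout replicate 4 (-0.32, adjusted p = 0.0234) and under total-count scaling in place of TMM factors (-0.78, adjusted p = 0.000106).

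Neither the signalling receptors Npr1 and Npr2 nor the clearance receptor Npr3 passed. Their log2 fold changes were 0.02, -0.05 and -0.00373, with adjusted p of 0.933, 0.709 and 0.992. Under total-count scaling, Npr1 turned to -0.52 (adjusted p = 0.0292), Npr2 passed as lower at -0.60 (adjusted p = 0.000585) and Nppa turned to -0.37 (adjusted p = 0.225). Mme, which encodes neprilysin, a peptidase that degrades natriuretic peptides, rose from between 0.694 and 1.26 CPM in MI hearts to between 1.33 and 1.91 CPM in knockout hearts (log2 fold change 0.74, adjusted p = 0.0179). With total counts its log2 fold change was 0.19 and it did not pass (adjusted p = 0.537), nor did it without MI replicate 1, MI replicate 4 or knockout replicate 4 (adjusted p of 0.0530 to 0.0592). Dpp4, the relative of Fap that also trims BNP, fell from between 1.75 and 2.85 CPM in MI hearts to between 0.816 and 1.75 CPM in knockout hearts, with knockout replicate 4 in the MI range (log2 fold change -1.01, adjusted p = 0.0133). Prep, a cytosolic prolyl peptidase, did not pass (log2 fold change 0.28, adjusted p = 0.0572), but it passed as higher with RLE factors, another scaling (0.31, adjusted p = 0.0442), by DESeq2 (0.31, adjusted p = 0.0454) and without MI replicate 3, knockout replicate 1 or knockout replicate 2 (adjusted p of 0.0279 to 0.0314). With total counts its sign turned and it passed as lower (-0.26, adjusted p = 0.0333). Of the phosphodiesterases that break down cyclic GMP, Pde9a rose (log2 fold change 1.69, adjusted p = 6.26e-05) and Pde5a fell (log2 fold change -0.70, adjusted p = 0.00279). In all, 3 of the 16 natriuretic and cyclic GMP genes rose and 4 fell, beside 25.0% of all genes tested that rose and 26.0% that fell. That share is near the background and is no result about the system.

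**Figure D1:**
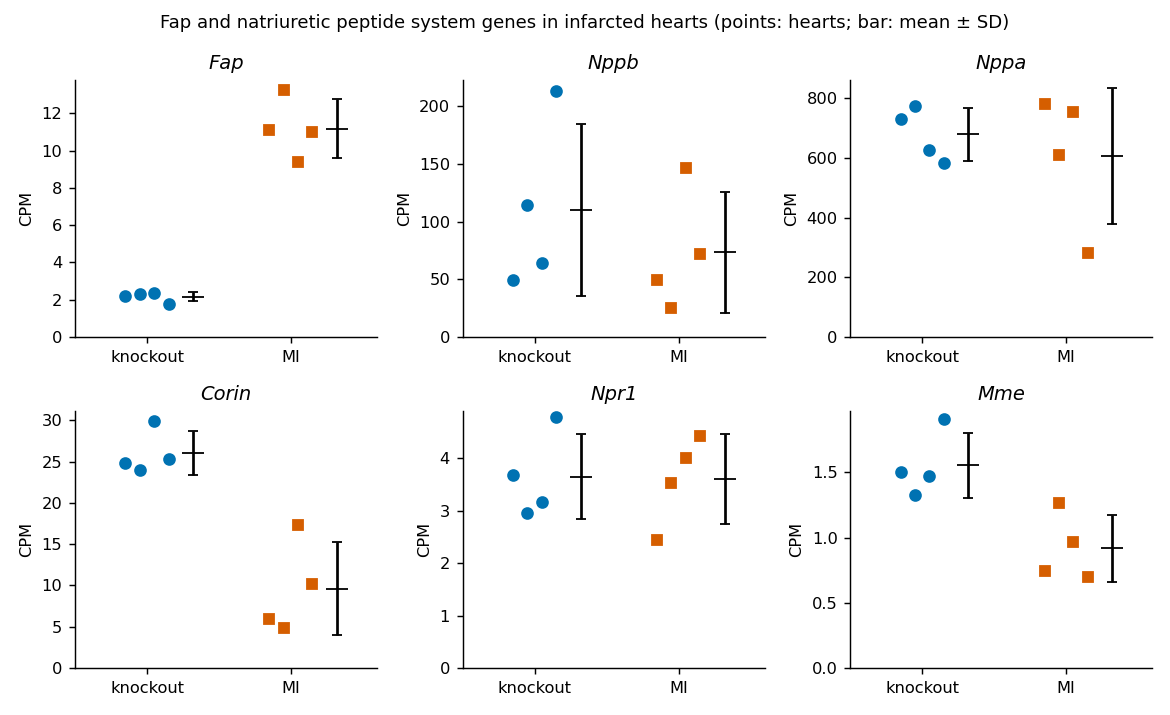
CPM of 6 genes (vertical axes, each from 0) in the 4 knockout hearts (circles) and the 4 MI hearts (squares), with mean ± SD beside the points. Fap, Corin and Mme separate the groups, whereas Nppb, Nppa and Npr1 overlap.

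Differences between the genotypes ran through the whole transcriptome. Of 17064 genes tested, 8700 passed, which is 51.0%, and 4271 of them rose and 4429 fell. The 2 groups' CPM did not overlap for 7745 genes, or 45.4%. Changes of 2-fold or more were found for 1942 genes that rose and 1276 that fell. With shares of that size, counts of list members below stand beside the 25.0% of all genes that rose and the 26.0% that fell. A gene list that passes in full is also read by how large its median change is beside a median of -0.08 over all genes.

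The balance of rises and falls depended on scaling. With total counts in place of TMM factors the median of all genes was -0.63 instead of -0.08, and 12531 genes passed, of which 2076 rose and 10455 fell, so the share that rose moved from 49.1% to 16.6%. Directions given below for lists that rose hold relative to the median gene, and a list is said to flip where total-count scaling turned it. The TMM factors were 0.888 to 0.986 in the knockout hearts and 1.24 to 1.55 in the MI hearts. The 50 most abundant genes took 34.3% to 36.2% of counts in knockout and 26.5% to 30.0% in MI hearts. MI replicate 3 lay nearest to the knockout hearts on the first principal component, which held 74.1% of the variance of the 1000 most variable genes.

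Cardiomyocyte RNA was the first large group that separated the genotypes. All 21 cardiomyocyte markers rose, with log2 fold changes of 0.92 to 2.82 and a median of 1.99. Their mean log2 CPM, the cardiomyocyte marker level, was 10.42 to 10.76 in knockout, 8.01 to 9.39 in MI, 9.81 to 10.65 in MI+FAPI and 11.05 to 11.19 in sham hearts. The MI heart at the top of its range was replicate 3. In such bulk tissue, a smaller number of cells of a type and less RNA per cell cannot be told apart, and neither can the distance of each piece of tissue from the infarct, which the labels do not give.

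**Figure D2:**
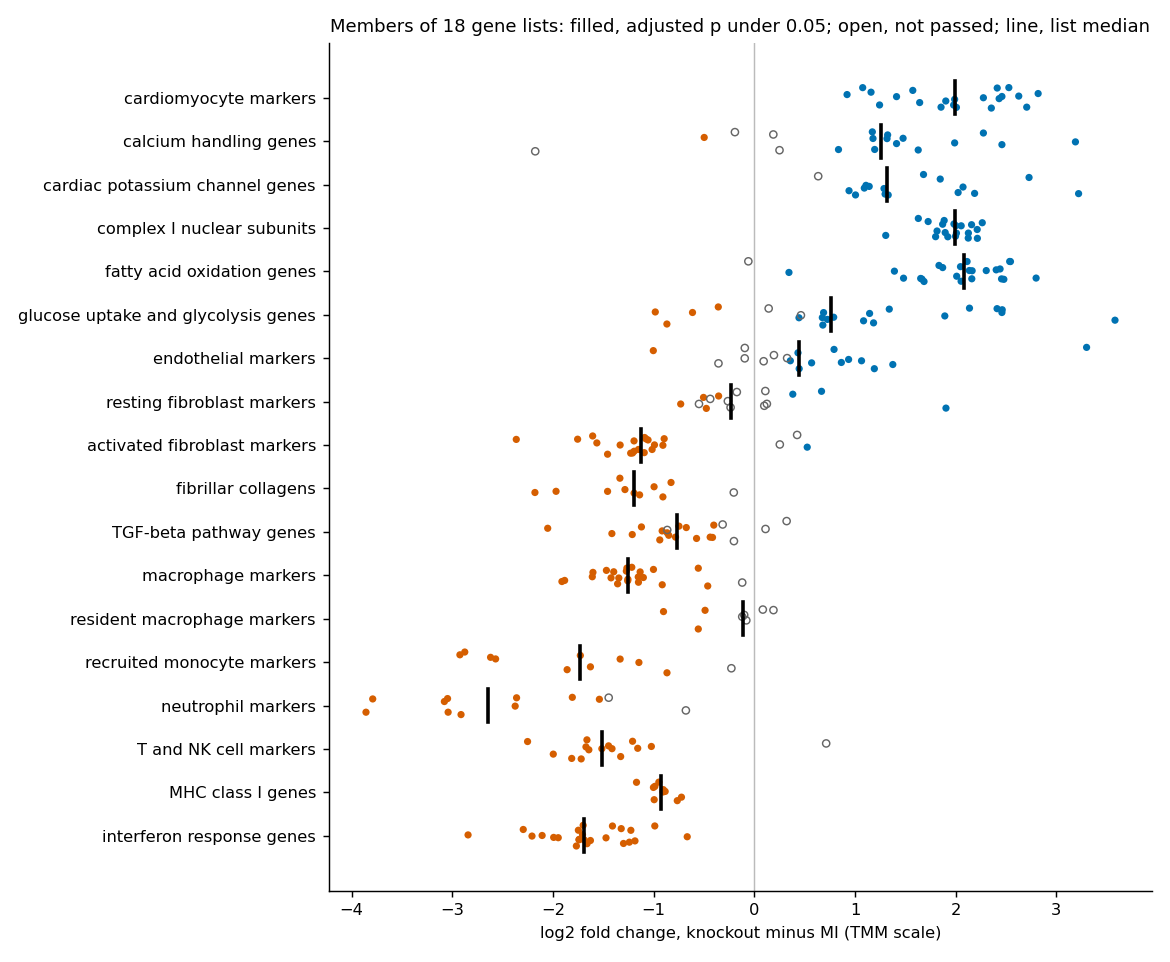
Log2 fold change of knockout minus MI (horizontal axis) for each tested member of 18 gene lists (rows). Filled points passed at an adjusted p under 0.05, open points did not, and vertical bars are list medians. Medians of cardiomyocyte and mitochondrial lists lie to the right of 0 and those of matrix, leukocyte and interferon lists to the left. The resident macrophage median is near 0, at -0.11, and single members of some lists lie on the other side.

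Contractile genes were among them. Myh6, the adult heart's fast myosin heavy chain, had 1573, 1351, 1483 and 1209 CPM in the knockout hearts and 142, 158, 362 and 134 CPM in the MI hearts (log2 fold change 2.82, SE 0.31, adjusted p = 2.39e-06). Every knockout heart lay above every MI heart and below the 2529.8 to 2732 CPM of sham hearts. Myh7, the slow myosin that rises in stressed mouse ventricle, rose as well, from between 11.6 and 45.5 CPM in MI hearts to between 66.8 and 150.3 CPM in knockout hearts (log2 fold change 1.98, adjusted p = 0.000453). Tnnt2, cardiac troponin T, changed least of the 21, and its groups overlapped (log2 fold change 0.92, adjusted p = 0.0193). It lost its call with total counts (0.42, adjusted p = 0.12) and without MI replicate 1 (adjusted p = 0.0624), MI replicate 2 (0.0572) or knockout replicate 3 (0.0503).

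Stress genes of the muscle cell were not lower in the knockout hearts. Acta1, skeletal alpha-actin, which the loaded heart re-expresses, had 2961, 1891, 4481 and 3922 CPM against 269, 802, 665 and 325 CPM (log2 fold change 2.68, adjusted p = 2.31e-05), and Ankrd1, a stretch-responsive Z-disc protein, rose from between 1846 and 3946 CPM in MI hearts to between 5722 and 8391 CPM in knockout hearts (log2 fold change 1.49, adjusted p = 0.00015). Both lay above the sham range, 431 to 687 and 1179 to 1830.1 CPM. 8 of the 17 stress genes tested rose, beside the 25.0% of all genes, with a median of 0.71. Under total-count scaling 5 rose and 2 fell.

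Most genes of excitation and calcium cycling rose with them. 13 of the 18 calcium handling genes rose and 1 fell, beside the 25.0% and 26.0% of all genes. With total counts 13 rose and 4 fell. Among those that rose was Pln, which encodes the brake of the sarcoplasmic calcium pump, at 355, 359, 426 and 329 CPM against 64.95, 55.9, 103 and 79.3 CPM (log2 fold change 2.28, adjusted p = 3.73e-07). Hrc, a calcium-binding protein of the same membrane store, had 224, 178, 250 and 163 CPM against 15.1, 22.2, 33.2 and 18.7 CPM (log2 fold change 3.19, SE 0.29, adjusted p = 5.05e-07). 15 of the 16 cardiac potassium channel genes rose. Kcnip2, the subunit needed for the fast transient outward current, had 23.3, 17.3, 30.8 and 18.2 CPM in knockout and 1.702, 2.14, 3.67 and 2.08 CPM in MI hearts, a 9.32-fold difference (log2 fold change 3.22, SE 0.26, adjusted p = 2.58e-07). Gja1, the gap junction protein connexin 43, rose by 0.87 on the log2 scale (adjusted p = 0.00258), and with total counts did not pass (0.35, adjusted p = 0.055).

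The other lists of the muscle cell rose in part. 16 of the 18 Z-disc and thick filament genes, 8 of the 12 intercalated disc genes, 11 of the 17 adrenergic and muscarinic signalling genes and 8 of the 14 cardiac transcription factors rose. These stand beside the 25.0% of all genes that rose, and 1 adrenergic and muscarinic gene fell. The list medians were 1.56, 0.62, 0.62 and 0.64, and with total counts the last 3 were 0.08, 0.09 and 0.10. With total counts these 3 lists were mixed: 5, 7 and 7 members rose and 3, 4 and 4 fell.

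Of 10 atrial myocyte markers, 2 rose and 4 fell, beside the 25.0% and 26.0% of all genes. Myl7, the atrial light chain, had 0.558, 0.818, 2.98 and 4.48 CPM against 4.704, 0.619, 48.3 and 2.74 CPM, with a log2 fold change of -2.67 (adjusted p = 0.0322). Without MI replicate 3, the high one, it was -0.26 (adjusted p = 0.773), and leaving out knockout replicate 1, 2 or 3 ended the call too, at adjusted p of 0.0563 to 0.0820. Sln, which encodes the atrial calcium pump regulator sarcolipin, ranged from 1.08 to 156 CPM within the MI group and did not pass (log2 fold change -2.18, adjusted p = 0.112), but passed without knockout replicate 1 (-4.29, adjusted p = 0.00835) or MI replicate 4 (-2.58, adjusted p = 0.0434).

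Mitochondrial genes rose in every list tested. All gene identifiers on the mitochondrial chromosome, a wider set than the 13 genes of the mitochondrially encoded list, were counted for the mitochondrial share. They took 13.7% ± 0.524 (SD, n = 4) of counts in the knockout hearts and 5.60% ± 1.68 in the MI hearts. The difference was 8.13 percentage points (two-sided exact permutation p = 0.02857, the smallest that the 70 assignments of 8 hearts can give). mt-Nd1, a complex I subunit, had 19263, 17237, 21651 and 19511 CPM against 3759, 3654, 8715 and 5416 CPM. mt-Co2, mt-Co3, mt-Nd4l and mt-Atp8 were not tested, with at most 10 counts a library. All 9 tested genes of the mitochondrially encoded list rose.

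Nuclear genes of the same machinery moved alike. 20 of the 20 nuclear complex I subunits and 21 of the 21 subunits of complexes II to V rose, with medians of 1.99 and 1.93. Cox8b, the heart and muscle form of a cytochrome oxidase subunit, had 4654, 3973, 4908 and 3423 CPM against 501, 489, 1029 and 501 CPM (log2 fold change 2.75, SE 0.28, adjusted p = 1.45e-06). Every one of the 16 mitochondrial ribosomal protein genes rose too, by a smaller median of 1.10. All of these lists kept a median above 0 under total-count scaling, at 1.46, 1.41 and 0.57 in the same order.

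Genes of fat, ketone and pyruvate use rose. 23 of the 24 fatty acid oxidation genes rose, with a median of 2.08. Lpl, the lipase that frees fatty acids at the vessel wall, had 1732, 2159, 2071 and 1799 CPM in knockout and 288, 285, 592 and 407 CPM in MI hearts (log2 fold change 2.30, adjusted p = 1.66e-06). Ucp3, a muscle mitochondrial carrier switched on by fatty acids, had 11.5, 9.27, 11.9 and 11.04 CPM against 0.774, 0.593, 0.778 and 0.578 CPM, the largest fold change after a pseudogene described last among genes of at least 10 CPM (log2 fold change 3.99, SE 0.31, adjusted p = 2e-07). Its knockout values also lay above the sham range of 5.24 to 7.51 CPM. Plin5, which ties lipid droplets to mitochondria, had 141, 108, 183 and 112 CPM against 8.32, 8.43, 16.1 and 9.67 CPM (log2 fold change 3.68, SE 0.28, adjusted p = 1.46e-07).

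All 15 genes of the TCA cycle rose, with a median of 1.81. Bdh1, the first enzyme of ketone body use, had 28.1, 34.1, 45.4 and 39.04 CPM against 2.97, 2.68, 9.24 and 3.93 CPM (log2 fold change 2.97, adjusted p = 4.17e-06), whereas sham hearts had 5.38 to 6.401 CPM and MI+FAPI hearts 19.7 to 46.9 CPM. The knockout values of Bdh1 thus lay above the sham range and inside that of MI+FAPI hearts. Acat1, the thiolase of ketone and isoleucine breakdown, rose from between 57.96 and 86.5 CPM in MI hearts to between 256 and 310 CPM in knockout hearts (log2 fold change 2.03, adjusted p = 1.42e-07).

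Within the pyruvate dehydrogenase list, 11 of 12 genes rose and 1 fell. Pdk4, the kinase that shuts the complex when fat is used, had 23.9, 28.8, 18.5 and 34.3 CPM against 7.98, 5.29, 9.02 and 10.1 CPM (log2 fold change 1.71, adjusted p = 2.61e-06), and the phosphatase gene Pdp2, which acts in the opposite direction, rose from between 15.9 and 19.1 CPM in MI hearts to between 50.2 and 72.7 CPM in knockout hearts (log2 fold change 1.79, adjusted p = 8.03e-08). Pdk3 was the member that fell, from between 12.4 and 14.9 CPM in MI hearts to between 5.58 and 7.903 CPM in knockout hearts (log2 fold change -0.99, adjusted p = 4.11e-05).

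Glucose genes were split. Of the list, 16 of 22 rose and 4 fell, and with total counts 10 rose. Slc2a4, the insulin-regulated transporter GLUT4, rose from between 10.4 and 25.5 CPM in MI hearts to between 61.4 and 72.5 CPM in knockout hearts (log2 fold change 2.14, adjusted p = 2.65e-06). Fbp2, the muscle fructose bisphosphatase, had 24.9, 25.8, 27.7 and 19.6 CPM in the knockout hearts, 1.76, 1.78, 2.396 and 2.27 CPM in the MI hearts and 5.31 to 11.6 CPM in the MI+FAPI hearts, a 11.98-fold rise over MI (log2 fold change 3.58, SE 0.22, adjusted p = 3.32e-08).

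The stearoyl desaturases, which make monounsaturated fatty acids, went in opposite directions. Scd4, the form of the heart, had 5.75, 21.2, 11.1 and 5.499 CPM in knockout and 0.6498, 0.902, 1.03 and 1.002 CPM in MI hearts (log2 fold change 3.61, SE 0.54, adjusted p = 4.81e-05). Scd1, the main form of liver and fat, had 6.91, 6.2, 6.01 and 9.05 CPM against 26.2, 42.7, 26.9 and 44.8 CPM (log2 fold change -2.32, SE 0.21, adjusted p = 6.2e-07). Knockout hearts lay near the sham range for Scd1, 4.25 to 6.55 CPM, and partly below it for Scd4, 12.8 to 25.6 CPM. Of the 18 genes that break down branched-chain amino acids 16 rose, whereas of the 14 genes of cholesterol synthesis 1 rose and 5 fell. Of all genes 25.0% rose and 26.0% fell.

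Transcription factors of oxidative metabolism rose as well, 10 of 15 in that list. Ppargc1a, the coactivator PGC-1 alpha, had 44.7, 52.3, 51.1 and 36.2 CPM against 6.56, 6.96, 14.7 and 9.21 CPM (log2 fold change 2.30, SE 0.24, adjusted p = 1.77e-06). Ppara, the fatty acid receptor that it works with, rose from between 1.696 and 2.92 CPM in MI hearts to between 10.2 and 13.3 CPM in knockout hearts (log2 fold change 2.54, adjusted p = 4.43e-07), and Esrrb, an oestrogen-related receptor, from between 2.16 and 2.43 CPM in MI hearts to between 10.1 and 17.4 CPM in knockout hearts (log2 fold change 2.54, adjusted p = 3.09e-07). The complex I, fatty acid oxidation and TCA cycle lists moved with the cardiomyocyte marker level given above.

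To see which differences passed beside that level, it was added to the fit as a covariate over all 15 hearts. With the groups also in the fit, the slope comes from hearts within groups, and since the 2 groups' levels did not overlap the adjusted difference is an extrapolation. With it 183 genes passed, 1.07% of those tested, and 156 of them, or 0.914%, were lower in knockout hearts. No gene of the complex I, complex II to V or mitochondrially encoded lists passed by edgeR, where an unadjusted p under 0.05 was found for 7 of 20, 5 of 21 and 0 of 9. Of the fatty acid oxidation, TCA, pyruvate dehydrogenase and glycolysis lists 1 gene each passed as higher, and 1 further glycolysis gene as lower. Over all genes tested, metabolic genes that stayed higher included Fbp2 (log2 fold change 2.25, adjusted p = 0.0122), Plin5 (log2 fold change 1.84, adjusted p = 0.0173) and Acat1 (log2 fold change 1.06, adjusted p = 0.0215). Outside metabolism, Gadd45a, a stress gene of growth arrest, was 18.1, 16.4, 18.8 and 15.6 CPM in knockout and 9.41, 11.8, 7.28 and 9.09 CPM in MI hearts, and passed with the covariate (log2 fold change 1.46, adjusted p = 0.0164) though not under total-count scaling (adjusted p = 0.104, covariate omitted). Rpl3l, a ribosomal protein of striated muscle, was 93.5, 73, 108 and 68.2 CPM against 8.2, 8.56, 11.9 and 9.25 CPM (log2 fold change 2.05, adjusted p = 0.0173 with the covariate).

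Fap itself passed with this covariate (log2 fold change -1.67, adjusted p = 0.0106). Corin did not, and its sign turned (log2 fold change -0.75, adjusted p = 0.25). With the macrophage marker level as the covariate, a setting added after the data were seen, Fap kept its direction but did not pass (log2 fold change -1.75, adjusted p = 0.3). Macrophage levels of the groups did not overlap either, so this difference is an extrapolation too.

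Activated fibroblast genes fell. Of 22 markers, Fap among them, 19 fell and 1 rose, with a median of -1.12. The marker level was 6.71 to 6.89 in knockout, 7.60 to 8.05 in MI, 7.13 to 7.73 in MI+FAPI and 5.16 to 5.52 in sham hearts. Knockout hearts thus lay below all MI hearts and above all sham hearts. With the cardiomyocyte covariate 1 of the 22 markers passed, and it was Fap.

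Collagens of the scar fell with them. 10 of the 11 fibrillar collagen genes fell. Col1a1, the main chain of scar collagen, had 2057, 1921, 1397 and 1762 CPM against 4822, 6989, 4073 and 3718 CPM (log2 fold change -1.46, SE 0.25, adjusted p = 0.000135). Col3a1, the finer collagen of early repair, had 1774, 1682, 1521 and 1641 CPM against 3081, 3686, 2899 and 2751 CPM (log2 fold change -0.91, adjusted p = 8.75e-05). Col11a1, a minor fibril chain, fell further, to 23.1, 20.03, 14.3 and 17.9 CPM from 73.1, 129, 57.7 and 80.96 CPM (log2 fold change -2.18, SE 0.28, adjusted p = 1.12e-05). The exception, Col5a3, did not pass (log2 fold change -0.20, adjusted p = 0.32), but under total-count scaling it passed as lower (-0.77, adjusted p = 0.00291).

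Enzymes that finish and cross-link collagen fell in 15 of the 19 cases. Lox, the main cross-linking oxidase, had 98.3, 119, 83.9 and 109 CPM against 219, 246, 222 and 264 CPM (log2 fold change -1.21, adjusted p = 9.62e-06). Loxl3, a relative, fell from between 35.03 and 61.5 CPM in MI hearts to between 14.6 and 18.6 CPM in knockout hearts (log2 fold change -1.44, adjusted p = 2.09e-06). 14 of the 18 matricellular protein genes fell, for example Thbs2, an antiangiogenic thrombospondin, at 70.7, 75.9, 43.4 and 53.4 CPM against 211, 274, 142 and 195 CPM (log2 fold change -1.76, adjusted p = 1.44e-05). Timp1, an inhibitor of matrix proteases made in wounds, fell from between 236 and 347 CPM in MI hearts to between 108 and 152 CPM in knockout hearts (log2 fold change -1.06, adjusted p = 3.66e-05), whereas Timp4, the inhibitor of resting heart muscle, rose from between 3.02 and 5.69 CPM in MI hearts to between 28.5 and 38.6 CPM in knockout hearts (log2 fold change 3.01, adjusted p = 6.1e-07).

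Signals of the fibrotic response fell too, 15 of the 20 TGF-beta pathway genes, beside the 26.0% of all genes. Inhba, the activin A subunit, had 11.2, 15.5, 7.63 and 13.6 CPM against 33.8, 33.7, 24.7 and 35.8 CPM (log2 fold change -1.41, adjusted p = 4.54e-05). Fst, the secreted antagonist of activin, fell with its target, to 7.86, 15.9, 6.63 and 11.9 CPM from 41.9, 34.1, 38.02 and 62.1 CPM (log2 fold change -2.05, adjusted p = 7.54e-05). Sfrp1, a secreted Wnt antagonist, had 239.8, 344, 218 and 285 CPM against 542, 594, 581 and 575 CPM (log2 fold change -1.08, adjusted p = 0.000166). Actg2, the smooth muscle gamma-actin that contractile cells can express, was among the strongest falls, at 6.53, 9.67, 3.39 and 4.68 CPM against 49.4, 53.5, 26.97 and 36.8 CPM (log2 fold change -2.78, SE 0.38, adjusted p = 1.95e-05).

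Of 15 resting fibroblast markers, 3 rose and 4 fell, beside the 25.0% and 26.0% of all genes, with a median of -0.24. Pdgfra, the receptor that marks most heart fibroblasts, was 12.8, 10.9, 12.3 and 12.5 CPM against 15.7, 16.7, 17.8 and 17.5 CPM (log2 fold change -0.48, adjusted p = 0.000677). Tcf21, the transcription factor of resting fibroblasts, did not pass (log2 fold change -0.55, adjusted p = 0.202). Under total-count scaling 12 of the 15 fell, Tcf21 among them (-1.09, adjusted p = 0.0185), with a median of -0.79 beside -1.68 for the activated markers. The difference between the lists was not tested.

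Most macrophage, recruited monocyte, neutrophil and T and NK cell markers were lower in the knockout hearts. Of 23 macrophage markers 22 fell, beside the 26.0% of all genes, with a median of -1.26. The macrophage level was 5.67 to 6.26 in knockout, 7.10 to 7.34 in MI, 6.44 to 6.96 in MI+FAPI and 5.16 to 5.34 in sham hearts. Fcgr1, the high-affinity IgG receptor CD64, had 12.9, 15.7, 11.6 and 12.99 CPM against 55.7, 43.3, 46.4 and 54.8 CPM (log2 fold change -1.91, SE 0.14, adjusted p = 1.19e-07). C1qa, a complement chain made by tissue macrophages, had 331, 444, 284 and 395 CPM against 935, 859, 878 and 1023 CPM (log2 fold change -1.35, adjusted p = 1.73e-06).

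**Figure D3:**
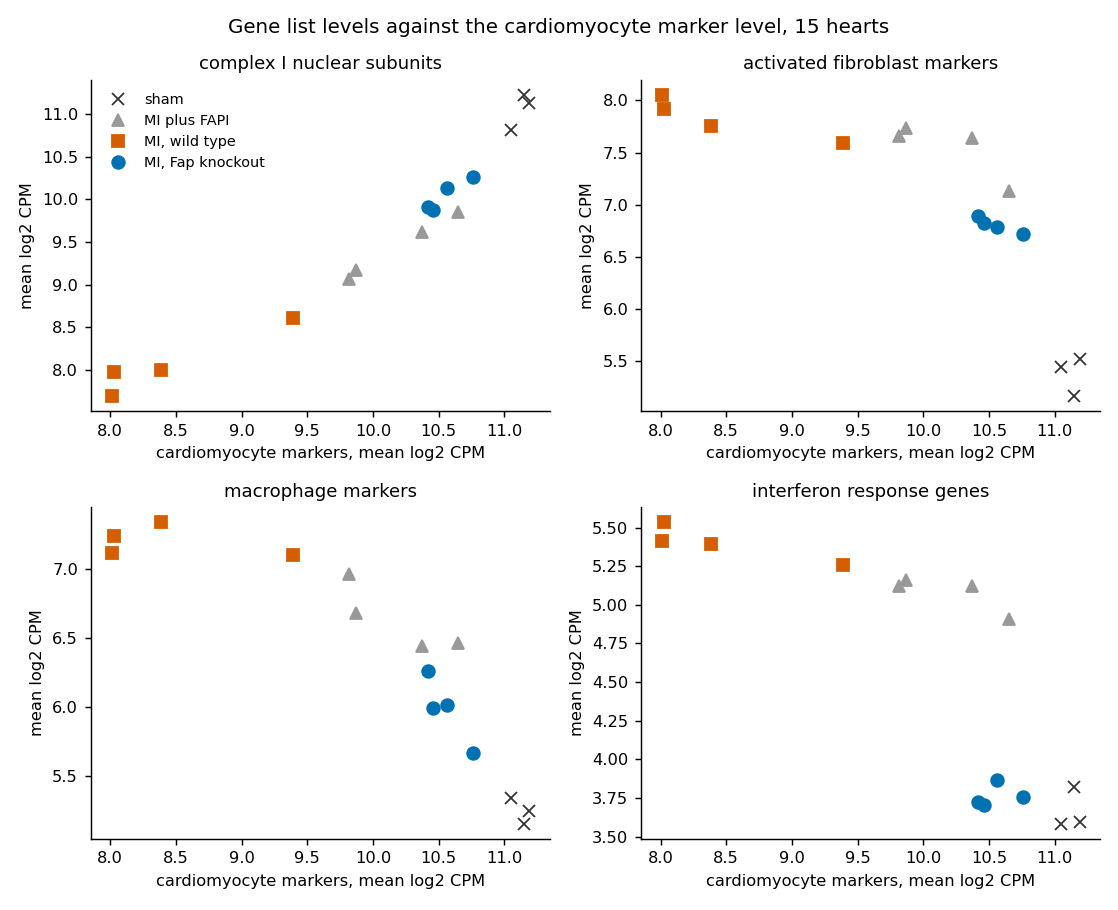
Mean log2 CPM of 4 gene lists (vertical axes) against the cardiomyocyte marker level (horizontal axes) in each of 15 hearts, by group. Knockout hearts lie between MI and sham hearts for complex I, activated fibroblast and macrophage genes, and within or next to the sham range for interferon response genes.

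10 of the 11 recruited monocyte markers fell, with a median of -1.73. 3 of the 8 resident macrophage markers did, beside the 26.0% of all genes, with a median of -0.11. The difference between the lists was not tested. Plac8, a gene of circulating monocytes, had 20.99, 26.7, 16.6 and 26.2 CPM against 141, 125, 136 and 154 CPM (log2 fold change -2.62, SE 0.20, adjusted p = 1.48e-07). Ms4a4c, which monocytes express under interferon, had 10.8, 10.1, 10.1 and 10.9 CPM against 74.7, 64.8, 82.1 and 85.6 CPM (log2 fold change -2.88, SE 0.16, adjusted p = 9.63e-09). Ccr2, the receptor that draws monocytes into tissue, fell from between 20.5 and 31.02 CPM in MI hearts to between 10.99 and 15.7 CPM in knockout hearts (log2 fold change -0.87, adjusted p = 0.00259). Arg1, the arginase of wound macrophages, had 3.56, 3.71, 2.1 and 8.77 CPM against 14.2, 14.2, 42.8 and 20.2 CPM (log2 fold change -2.33, adjusted p = 0.0139), and Chil3, a chitinase-like protein of monocytes, 1.33, 1.499, 0.995 and 2.65 CPM against 6.25, 19.1, 14.3 and 9.402 CPM (log2 fold change -2.92, adjusted p = 1.02e-05). Cd163, a scavenger receptor of resident macrophages, had 5.62, 5.14, 4.64 and 10.6 CPM against 2.79, 5.85, 9.86 and 9.83 CPM and did not pass (log2 fold change -0.12, adjusted p = 0.785).

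Neutrophil genes fell by the largest median of the leukocyte lists, -2.64, with 10 of the 12 markers passing, but single MI hearts carried much of the level. S100a8, a subunit of the neutrophil protein calprotectin, had 41.7, 41.8, 38.7 and 46.7 CPM against 75.3, 567, 605 and 148 CPM (log2 fold change -3.05, SE 0.48, adjusted p = 6.74e-05). Camp, the granule peptide cathelicidin, had 3.73, 3.17, 0.553 and 1.29 CPM against 7.33, 86.9, 9.18 and 16.6 CPM (log2 fold change -3.79, SE 0.72, adjusted p = 0.000384). Replicates 2 and 3 of the MI group were high for S100a8 and replicate 2 for Camp, whereas replicate 1 lay closest to the knockout range in both. Without MI replicate 2, Camp was at -2.34 (adjusted p = 0.000537). With the cardiomyocyte covariate, described above, 7 of the 12 neutrophil markers passed as lower, and not all of the 7 had passed without it. The list median was then -3.45, further from 0 than without the covariate, and is an extrapolation.

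14 of the 15 T and NK cell markers fell. Cd8a, of cytotoxic T cells, had 0.601, 0.818, 0.553 and 0.624 CPM against 1.49, 1.39, 2.302 and 3.08 CPM (log2 fold change -1.64, adjusted p = 0.00058), and Gzma, a granzyme of killer cells, 1.33, 1.397, 1.03 and 1.72 CPM against 7.396, 4.64, 5.44 and 4.39 CPM (log2 fold change -1.997, adjusted p = 1.07e-05). Of the other leukocyte lists, 5 of the 11 B cell markers, 2 of the 9 plasma cell genes and 1 of the 7 mast cell markers fell. These stand beside the 26.0% of all genes that fell. The plasma cell and mast cell shares are no larger than that and are no result about those cells. Ighm, the antibody heavy chain gene, ranged from 38.1 to 708 CPM among the knockout hearts and from 109.7 to 1656 CPM among the MI hearts, highest in replicate 4 of both (log2 fold change -1.17, adjusted p = 0.3). Without MI replicate 4 it turned to 0.33, and without knockout replicate 4 it passed at -2.54 (adjusted p = 0.0347). The count of B cell markers that fell moved with single hearts too: it was 3 without MI replicate 2, knockout replicate 1 or knockout replicate 3, and 9 without knockout replicate 4.

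Genes of antigen presentation fell in full, beside the 26.0% of all genes. All 10 of MHC class I fell, with a median of -0.93, and 8 of the 8 of class II, with a median of -0.87. H2-K1, a classical class I chain, had 278, 302, 260.2 and 349 CPM against 717, 652, 618 and 688 CPM (log2 fold change -1.17, adjusted p = 2.27e-06), and B2m, the shared light chain, had 1843, 2189, 1957 and 2294 CPM against 4462, 3543, 4244 and 4177 CPM (log2 fold change -0.99, adjusted p = 2.1e-05). Class I genes are close copies of each other, so the split of reads among them is uncertain. 13 of the 15 CC chemokine and receptor genes fell, beside the same 26.0%. Ccl12, a ligand of Ccr2, had 40.1, 50.1, 44.8 and 34.7 CPM against 164, 116, 219.7 and 185 CPM (log2 fold change -2.01, SE 0.19, adjusted p = 7.61e-07).

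Interferon response genes were low in every knockout heart, next to the level of hearts without an infarct. Type I interferons bind receptors on nearly all cells, and the transcription factors downstream of them then switch on antiviral genes through a short DNA element, the interferon-stimulated response element, whose core repeats GAAA with 2 bases between. Some macrophages of infarcted hearts are known to take up this state. All 24 genes of the list fell, with log2 fold changes of -2.84 to -0.67 and a median of -1.69, and in all 24 the groups did not overlap, beside the 26.0% of all genes that fell and the 45.4% without overlap. The list's level was 3.70 to 3.87 in knockout, 5.26 to 5.53 in MI, 4.91 to 5.16 in MI+FAPI and 3.58 to 3.82 in sham hearts. Knockout and sham ranges overlapped.

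Stretches of promoter are shown for 5 of these genes, because the letters of the element can be seen in them. Ifit1, Ifit3, Isg15 and Bst2 were chosen after their values were seen, and Ifih1 lies next to Fap. Each run is the 250 bases before the gene's start from RefSeq (GRCm38.p6), 5′ to 3′ on the gene's strand. Capitals mark matches of GAAANNGAA on either strand, which reads TTCNNTTTC on the opposite one, and overlapping matches run together.
Ifit1: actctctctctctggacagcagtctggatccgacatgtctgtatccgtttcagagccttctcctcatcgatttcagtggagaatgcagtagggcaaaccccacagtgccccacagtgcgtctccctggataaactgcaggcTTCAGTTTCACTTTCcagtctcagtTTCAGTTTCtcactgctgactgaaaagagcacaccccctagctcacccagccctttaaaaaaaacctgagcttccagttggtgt
Ifit3: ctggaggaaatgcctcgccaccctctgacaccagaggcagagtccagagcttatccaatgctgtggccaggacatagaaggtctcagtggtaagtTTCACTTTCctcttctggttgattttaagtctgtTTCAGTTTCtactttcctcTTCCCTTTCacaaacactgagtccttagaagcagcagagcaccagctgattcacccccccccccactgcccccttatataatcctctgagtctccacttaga
Isg15: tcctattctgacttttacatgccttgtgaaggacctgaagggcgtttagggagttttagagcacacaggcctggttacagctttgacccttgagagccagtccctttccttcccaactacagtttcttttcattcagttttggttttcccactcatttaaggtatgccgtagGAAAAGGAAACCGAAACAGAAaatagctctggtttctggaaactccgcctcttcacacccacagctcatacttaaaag
Bst2: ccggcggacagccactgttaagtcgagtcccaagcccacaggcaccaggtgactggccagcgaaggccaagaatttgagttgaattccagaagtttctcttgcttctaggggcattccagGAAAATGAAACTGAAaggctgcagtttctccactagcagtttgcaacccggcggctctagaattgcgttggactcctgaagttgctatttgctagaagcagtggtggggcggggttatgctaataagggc
Ifih1: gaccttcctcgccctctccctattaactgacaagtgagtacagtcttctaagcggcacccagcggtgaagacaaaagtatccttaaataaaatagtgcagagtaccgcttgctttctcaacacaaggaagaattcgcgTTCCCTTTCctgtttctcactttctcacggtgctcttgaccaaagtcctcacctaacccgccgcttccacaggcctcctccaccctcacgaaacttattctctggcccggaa
Ifit1 is at chr19:34640639-34640888, plus strand, Ifit3 at chr19:34583279-34583528, plus strand, Isg15 at chr4:156200819-156201068, minus strand, Bst2 at chr8:71537473-71537722, minus strand and Ifih1 at chr2:62646256-62646505, minus strand. The windows of Ifit1, Ifit3 and Isg15 hold 3 matches each, that of Bst2 holds 2 and that of Ifih1 holds 1.

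A match lay in windows of 300 bases (250 before and 50 after the start) of 11 of the 16 interferon genes found in the promoter table, or 68.8%. For comparison, 9.05% of 11795 tested genes with a window held one, as did 10.5% of the 19 cardiomyocyte markers. The windows of the other 5, that of Irf7 among them, held no match. A match is a description of the sequence and shows neither binding nor cause.

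The genes whose promoters are printed had similar patterns. Ifit1, an RNA-binding antiviral protein, had 24.5, 22.99, 19.9 and 22 CPM in knockout and 106, 81.03, 73.5 and 95.3 CPM in MI hearts (log2 fold change -1.99, SE 0.14, adjusted p = 6.94e-08). Ifit3, its partner, had 38.4, 40.1, 44.9 and 36.9 CPM against 188, 126, 126 and 179 CPM (log2 fold change -1.95, SE 0.14, adjusted p = 8.12e-08), though its near copy Ifit3b makes the split of reads uncertain. Isg15, a ubiquitin-like modifier, had 25.5, 22.5, 22.4 and 18.6 CPM against 83.1, 83.2, 66.2 and 65.1 CPM (log2 fold change -1.74, SE 0.15, adjusted p = 3.36e-07). The knockout values of these 3 overlapped the sham ranges, which were 20.4 to 25.3, 34.03 to 41.9 and 18.3 to 22.1 CPM. Bst2, the tether that holds budding viruses, had 103, 99.3, 89.3 and 92.6 CPM against 262, 295, 239 and 271 CPM (log2 fold change -1.47, SE 0.11, adjusted p = 1.14e-07).

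The regulator and sensors of the response moved with its targets. Irf7, the factor that amplifies type I interferon production, had 30.9, 27.6, 25.5 and 25.97 CPM against 128, 121, 111 and 114 CPM (log2 fold change -2.11, SE 0.11, adjusted p = 5.28e-09). Zbp1, a sensor of Z-form nucleic acid, had 8.63, 10.8, 9.51 and 10.8 CPM against 45.2, 40.3, 48.4 and 49.6 CPM (log2 fold change -2.21, SE 0.10, adjusted p = 1.5e-09). Spread within each group was small for both, and the groups stood apart by more than 3-fold. Cxcl10, a chemokine induced by interferons, had 1.24, 2.998, 1.47 and 1.91 CPM against 12.7, 7.01, 7.84 and 10.3 CPM (log2 fold change -2.29, adjusted p = 3.19e-06). Cxcl9, which depends on interferon gamma, had 16.5, 18.9, 14.4 and 10.8 CPM against 13.4, 19.7, 19.3 and 15.6 CPM and did not pass (log2 fold change -0.17, adjusted p = 0.436). Under total-count scaling Cxcl9 passed as lower (-0.72, adjusted p = 0.00262). Of the 18 interferon gamma and guanylate-binding protein genes 15 fell, by a smaller median of -0.77.

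**Figure D4:**
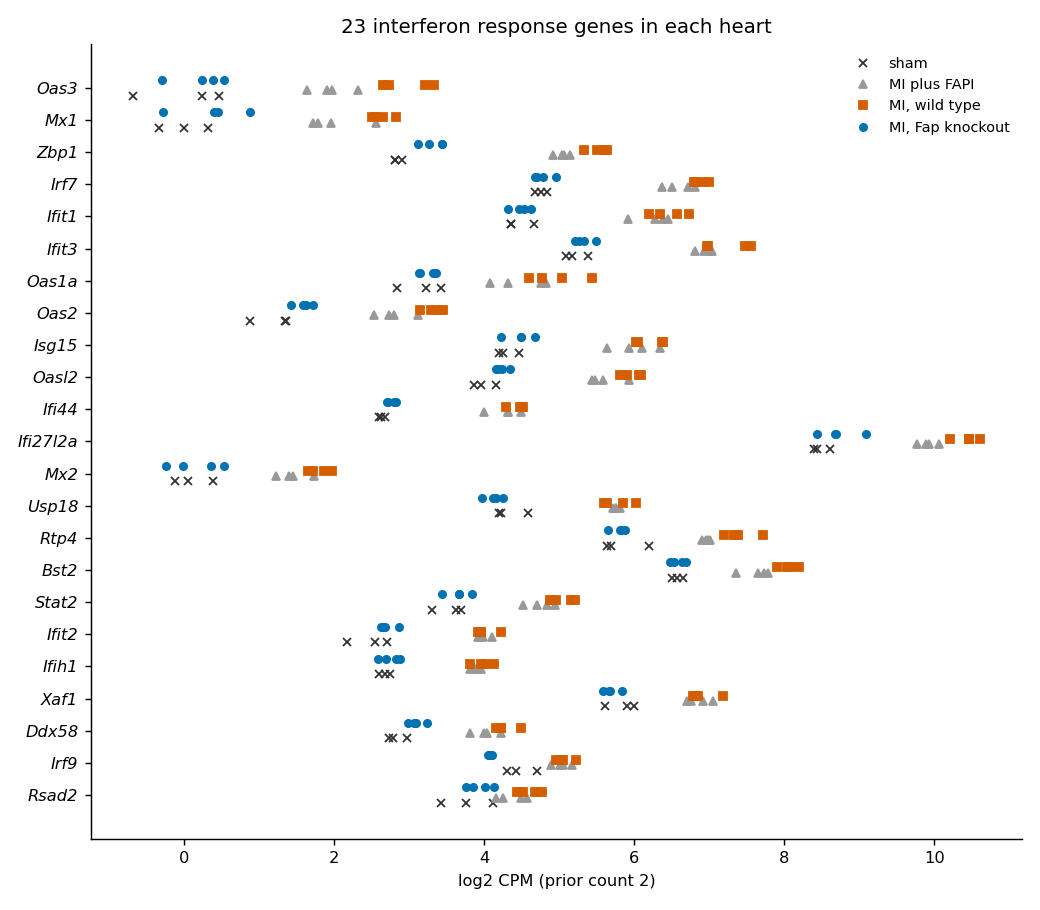
Log2 CPM (horizontal axis) of 23 of the 24 interferon response genes (rows, ordered by fold change) in each sham, MI+FAPI, MI and knockout heart. In every row the 4 knockout points lie to the left of all 4 MI points and of all 4 MI+FAPI points.

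Most of the list passed beside the change in cardiomyocyte RNA. With the cardiomyocyte level in the fit, 16 of the 24 still passed as lower, with a median of -1.24, beside the 0.914% of all genes. Of other lists, 7 of 12 neutrophil markers, 4 of 14 CXC chemokine genes and 3 of 11 recruited monocyte markers passed as lower. The counts were 3 of 23 macrophage markers, 1 of 10 MHC class I genes and 0 of 11 fibrillar collagens by edgeR (1 at an unadjusted p under 0.05). Of the 21 cardiomyocyte markers that make up the level, 2 passed as lower, though all 21 rose without the covariate. Tnnt2 was 1 of them (log2 fold change -1.20, adjusted p = 0.0114). Irf7 (log2 fold change -1.86, adjusted p = 0.000301) and Zbp1 (log2 fold change -2.24, adjusted p = 4.99e-05) were among the 16.

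The macrophage marker level moved with the interferon genes, and adding it left few calls. Its values did not overlap between groups, so differences adjusted for this level are extrapolations, and what part macrophages have was not tested. With it as the only covariate, a setting added after the data were seen, 4 genes of all passed, or 0.0234%, and they were Irf7, Zbp1, Ifi206 and Gm4951. With both marker levels 8 passed, or 0.0469%, all of them lower, and 2 of the 24 listed genes were among them. Irf7 kept a log2 fold change of -2.005 (adjusted p = 0.0209) and Zbp1 one of -1.93 (adjusted p = 0.0209). The median of the 24 was -1.36 with both covariates, against -1.69 without. Ifi206, a nucleic acid sensor of the PYHIN family, was 2.32, 2.42, 2.25 and 2.38 CPM in knockout and 12.5, 11.8, 14.8 and 12.1 CPM in MI hearts (log2 fold change -2.41, adjusted p = 0.0209 with both covariates). Gm4951 was 7.68, 7.87, 7.92 and 7.64 CPM against 27.2, 24.6, 24.3 and 26.4 CPM, with an SD of less than 2 CPM in either group (log2 fold change -1.55, adjusted p = 0.0282 with the macrophage covariate).

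**Figure D5:**
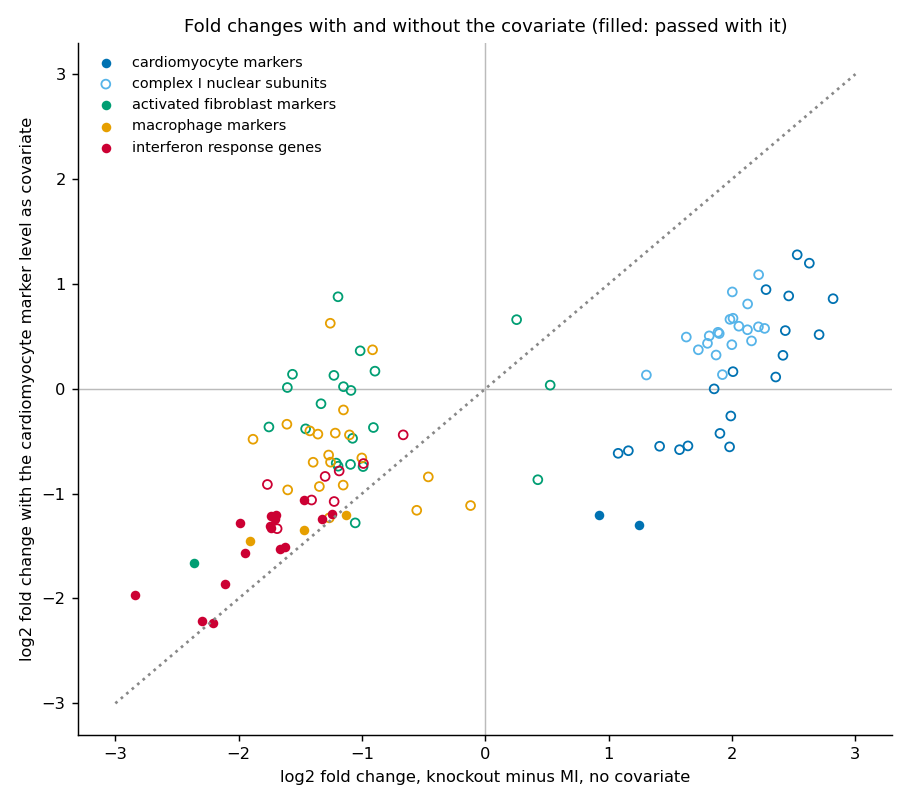
Log2 fold change of knockout minus MI without (horizontal axis) and with (vertical axis) that level in the fit as a covariate for cardiomyocyte RNA, for members of 5 lists. Filled points passed with the covariate, and the dotted line marks equal values. 16 of the 24 interferon points are filled, and no complex I point is.

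MI+FAPI hearts gave a further reference, because their cardiomyocyte level was closer to that of knockout hearts. This comparison was added after the data were seen, and it shares its knockout hearts with the one above. Knockout hearts were lower for 1203 genes (7.05% of those tested) and higher for 1044 (6.12%). All 24 interferon response genes were among those lower, with a median of -1.29 and no overlap in any. Of the cardiomyocyte markers 3 of 21 were higher, of the macrophage markers 16 of 23 lower and of the neutrophil markers 1 of 12 lower. Macrophage levels, given above, were lower in every knockout heart than in every MI+FAPI heart. With the cardiomyocyte covariate 23 interferon genes passed. With the macrophage covariate 15 did, when 0.193% of all genes passed as lower. Since macrophage levels did not overlap there either, that adjusted difference is an extrapolation too.

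In MI+FAPI hearts Irf7 was 82.8 to 112 CPM and Ifit1 60.5 to 87.4 CPM, so neither range reached the knockout hearts. Fatty acid oxidation genes also differed from MI+FAPI hearts, with 18 of 24 higher in knockout hearts and a median of 0.71. Activated fibroblast markers were lower in 13 of 22 cases. Whatever else the knockout line carries cannot be told apart from the knockout itself, since all 4 hearts share it.

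Ifih1 is the neighbour of Fap. It encodes MDA5, a sensor of double-stranded RNA, and starts 72.2 kb from Fap on chromosome 2. Ifih1 was 7.04, 6.404, 7.296 and 5.93 CPM in knockout and 15.4, 17.5, 16.1 and 14.03 CPM in MI hearts (log2 fold change -1.24, SE 0.09, adjusted p = 1.46e-07), and 6.01 to 6.62 CPM in sham hearts of genotype WT. The knockout values thus spanned the sham range. Of the 11 tested genes that start within 2000 kb of Fap, itself included, 7 passed. Besides Fap, Ifih1 and Dpp4, Rbms1 fell (log2 fold change -0.53, adjusted p = 0.000121), and Itgb6 (log2 fold change 1.30, adjusted p = 0.00016), Gca (log2 fold change 0.74, adjusted p = 0.00965) and Fign (log2 fold change 1.08, adjusted p = 6.13e-05) rose. Pla2r1, Tank, Psmd14 and Gm13577 did not pass. With total counts Gca did not pass (0.21, adjusted p = 0.331), and Pla2r1, Tank and Psmd14 passed as lower. The 7 of 11 stands beside the 51.0% of all genes.

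Vessel genes moved in both directions. Of 18 endothelial markers 11 rose and 1 fell, with a median of 0.44, but under total-count scaling 6 rose and 6 fell and the median flipped to -0.10. Car4, a carbonic anhydrase of heart capillaries, had 34.8, 24.6, 30.6 and 20.9 CPM against 2.17, 1.93, 4.73 and 2.43 CPM (log2 fold change 3.30, SE 0.29, adjusted p = 4.43e-07). Kdr, the main VEGF receptor, had 24.5, 17.99, 24.6 and 20.2 CPM against 8.66, 9.64, 13.4 and 10.02 CPM (log2 fold change 1.06, adjusted p = 2.64e-05). Plvap, a protein of leaky and newly formed vessels, was the marker that fell, to 58.1, 53.99, 61.8 and 67.3 CPM from 114, 115, 152 and 102 CPM (log2 fold change -1.003, adjusted p = 1.32e-05). Angpt2, the angiopoietin of remodelling vessels, fell from between 11.5 and 14.8 CPM in MI hearts to between 3.91 and 5.495 CPM in knockout hearts (log2 fold change -1.41, adjusted p = 2.95e-05).

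Mural cells showed a like split. 4 of 12 pericyte and smooth muscle markers rose and 6 fell, beside the 25.0% and 26.0% of all genes. Kcnj8, a potassium channel of pericytes, rose from between 12.3 and 19.3 CPM in MI hearts to between 35.1 and 47.8 CPM in knockout hearts (log2 fold change 1.43, adjusted p = 6.97e-06), and Myh11, the smooth muscle myosin, fell from between 10.98 and 12.5 CPM in MI hearts to between 4.76 and 6.92 CPM in knockout hearts (log2 fold change -0.98, adjusted p = 5.02e-05).

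Other tissues that a dissected piece can hold were checked by the same means. None of 10 epicardial and none of 9 skeletal muscle genes passed by edgeR, by DESeq2 or by limma-voom, nor at an unadjusted p under 0.05 by edgeR, but with total counts 2 of each list passed as lower. Adipocyte markers fell in 7 of the 10 cases, and in 4 of 10 without MI replicate 4, knockout replicate 1 or knockout replicate 3. Adipoq, the adipocyte hormone adiponectin, had 7.98, 28.5, 23.9 and 82.01 CPM against 53.2, 79.8, 83.1 and 91.4 CPM, so that 1 knockout heart lay in the MI range (log2 fold change -1.11, adjusted p = 0.105), and without it Adipoq passed at -1.93 (adjusted p = 0.00614). Erythroid genes rose in 5 of the 7 cases and in 2 of 7 without knockout replicate 2 or under total-count scaling, with 1160.3 to 2495 CPM of the globin gene Hba-a1 against 351 to 891 CPM, a gene that shares reads with its copy Hba-a2. The part of fat or blood in other results was not tested.

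Cell growth and protein folding genes changed by small amounts. Of 24 cell cycle genes 2 rose and 6 fell, beside the 51.0% of all genes, and with total counts 19 fell. Leaving out MI replicate 1 or knockout replicate 3 left 2 that fell, and leaving out MI replicate 3, MI replicate 4, knockout replicate 1 or knockout replicate 2 left 1 that rose. 14 of the 17 endoplasmic reticulum chaperone genes fell, beside the 26.0% of all genes, with a median of -0.56. Manf, a secreted factor of that stress response, had 110, 132, 101 and 119.6 CPM against 249.8, 185, 202 and 248 CPM (log2 fold change -0.94, adjusted p = 0.000149). Asns, asparagine synthetase, fell from between 11.1 and 25.01 CPM in MI hearts to between 5.67 and 9.27 CPM in knockout hearts (log2 fold change -1.24, adjusted p = 0.000685).

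A single gene set the knockout hearts apart from every other heart by 4-fold or more, and it was the only one at 2-fold too. It is Gm14719, a processed pseudogene on the X chromosome (GENCODE M21, mm10, chrX:49660960-49661299). Gm14719 had 18.3, 33.4, 46.3 and 40.2 CPM in the knockout hearts, 0.279, 0.6703, 1.09 and 0.925 CPM in the MI hearts and at most 1.93 CPM in any of the 11 hearts that were not knockout (log2 fold change 5.55, SE 0.38, adjusted p = 6.82e-08). Over 348 aligned bases it is 97.7% identical to the transcript of Ppdpf, a gene chosen after its values were seen. Ppdpf itself was 76.6, 57.3, 64.6 and 54.3 CPM against 71.5, 58.7, 70.5 and 64.4 CPM and did not pass (log2 fold change -0.07, adjusted p = 0.623). Under total-count scaling Ppdpf passed as lower (-0.61, adjusted p = 5.65e-05). Reads of such close copies are hard to assign, so the level of Gm14719 is uncertain.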

How the data were processed

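RNA of border zone tissue was measured by RNA-seq with a modified Smart-seq2 method and UMI barcodes, per the labels' protocols. The authors deposited whole-number counts per gene for each library. Per the submitters' processing notes STAR, HTSeq and the build mm10 were used, with versions not given in the sources used here. Whether counting used strand or UMIs is not given there either. The files list 53801 gene identifiers, of which 53706 matched GENCODE M21 without their version number.

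Counts of all 15 hearts were fitted in edgeR 4.0.16 (R 4.3.3) with filterByExpr and TMM factors. The 4 groups in the fit were sham, MI, MI+FAPI and knockout, and the contrast was knockout minus MI. Log2 CPM levels of low genes depend on a prior count of 2, which was not set for the fold changes. limma 3.58.1 and DESeq2 1.42.0 were alternatives, beside other scalings, filters, left-out hearts and marker levels as covariates. The mitochondrial share used an exact permutation test in scipy 1.17.1. The procedure was tested on simulated data in which few genes changed, as many up as down. Far more genes passed in the hearts, so that simulation does not check the choice of scaling. Depth per library is given with the groups. No batch is labelled. Within the MI group and within the knockout group, no library repeated another, and other pairs were not compared.

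The members and gene lists were chosen with earlier results of these data known. Genes named in the text were drawn from those that a rule picks, not all of them: 12 genes of the natriuretic and prolyl peptidase system; the 15 largest fold changes each way without overlap at 10 CPM or more; per list, up to 4 with the smallest p and any member of a list of up to 16 genes; genes apart from every other heart by 4-fold; tested genes within 2000 kb of Fap; and the 10 smallest p each way with the cardiomyocyte covariate. Ppdpf, Ifit1, Ifit3, Isg15 and Bst2 were chosen after their values were seen. Promoters are from RefSeq on GRCm38.p6, the build that mm10 names. Results for a few genes are not reported here.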

Additional observations from a re-analysis of the deposited data

Results flagged for a closer look

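In each group of 4 hearts, a heart was singled out where its gap to the nearest of the others, divided by the group's whole range, exceeded Dixon's critical value at the 5% level. This holds for about 1 in 20 groups by chance, and here it held for 14 of 236 groups of values (the named genes, 4 list levels and the mitochondrial share, each in MI and knockout hearts), or 5.93%.

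MI replicate 3 was the high heart in 6 of these. Among muscle genes it had, for Ankrd1, 3946 CPM against 1846 to 2146 CPM in the other 3, for Cox8b 1029 CPM against 489 to 501 CPM in the other 3 and for Myh6 362 CPM against 134 to 158 CPM in the other 3. Ppara, the fatty acid receptor, had 2.92 CPM against 1.696 to 1.76 CPM in the other 3. The atrial gene Myl7 had 48.3 CPM against 0.619 to 4.704 CPM in the other 3, and Nppc had 1.84 CPM against 0.347 to 0.402 CPM in the other 3. This heart also had the highest cardiomyocyte marker level of the MI group.

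In MI replicate 2, Camp was at 86.9 CPM against 7.33 to 16.6 CPM in the other 3. In MI replicate 4, Ighm was at 1656 CPM against 109.7 to 285 CPM in the other 3. In knockout replicate 1, Ifi213 was at 7.298 CPM against 5.45 to 5.69 CPM in the other 3. In the same heart, Npr2 was at 9.92 CPM against 7.8 to 7.92 CPM in the other 3. In the same heart, Sln was at 39.3 CPM against 1.95 to 3.304 CPM in the other 3. In knockout replicate 3, Myh7 was at 150.3 CPM against 66.8 to 79.8 CPM in the other 3. In knockout replicate 4, Cd163 was at 10.6 CPM against 4.64 to 5.62 CPM in the other 3. In the same heart, Dpp4 was at 1.75 CPM against 0.816 to 0.958 CPM in the other 3.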

How the results depend on the processing

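The count of genes that passed, 8700, was 3218 for changes of 2-fold or more, 183 with the cardiomyocyte covariate and, in settings added after the data were seen, 4 with the macrophage covariate and 8 with both. Without 1 heart it was 7383 (without knockout replicate 3) to 8681 (without MI replicate 3). Other scalings, filters and tools gave 8055 to 12531. Fap passed in each fit except those with the macrophage covariate (-1.75) or both covariates (-1.52). Nppb was -0.89 with the cardiomyocyte covariate (adjusted p = 0.819), and 0.050 to 1.17 without 1 heart. The difference in mitochondrial share was 7.65 to 8.93 percentage points without 1 heart, where p cannot fall below 0.05714.

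With the cardiomyocyte covariate the sign turned for 16 of the 113 genes named: Nppb above, and Col5a3 (0.060), Corin (-0.75), Gca (-0.21), Gja1 (-0.57), Ighm (0.68), Myh7 (-0.55), Nppa (-0.20), Npr1 (-0.43), Npr2 (0.082), Pla2r1 (0.18), Prep (-0.30), Psmd14 (-0.10), Tank (0.040), Tcf21 (0.98) and Tnnt2 (-1.20). With total counts it turned for Gm13577 (-0.46), Nppa (-0.37), Npr1 (-0.52), Prep (-0.26) and Psmd14 (-0.35). Npr3, near 0, turned with RLE factors (0.023), without the most abundant genes (0.0041), with DESeq2 (0.018), limma-voom (0.10) and the replicate block (0.055). Leaving out 1 heart turned Cd163 (-0.46 to 0.085), Ighm (-2.54 to 0.33), Nppa (-0.076 to 0.31), Npr1 (-0.14 to 0.13) and Npr3 (-0.18 to 0.20), given as the range over the 8 such fits. The cause was not tested. Cardiomyocyte, complex II to V and mitochondrially encoded counts fell without the most abundant genes because those members were removed.

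No label ties the replicate numbers to a shared animal, litter or day, and the main fit did not pair the hearts. Same-numbered deviations correlated at 0.107, 0.0648, 0.301 and 0.322, and only replicates 3 and 4 correlated best with their own number. Whether a number marks a shared source was not tested. With the numbers as a block 8324 genes passed, and 108 of 113 named genes kept their call and direction. Ighm (-1.20, adjusted p = 3.47e-05), Adipoq (-1.52, adjusted p = 0.00169) and Tcf21 (-0.57, adjusted p = 0.0254) then passed, Myl7 did not (-1.73, adjusted p = 0.0602), and 9 of 11 B cell, 6 of 9 plasma cell and 2 of 10 epicardial genes passed as lower. With 4 hearts a group and no labelled batch, differences below the spread between hearts were not detectable, and the markers do not separate cell number from RNA per cell.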

Other observations

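Several genes outside the lists above had large differences. Dct, an enzyme of melanin synthesis, had 10.9, 9.23, 16.1 and 11.4 CPM in the knockout hearts and 0.681, 0.825, 1.24 and 0.963 CPM in the MI hearts (log2 fold change 3.68, SE 0.31, adjusted p = 3.18e-07). It was 6.07 to 8.82 CPM in sham and 3.26 to 9.31 CPM in MI+FAPI hearts, so that the MI hearts were the low group. Trim7, a ubiquitin ligase of the TRIM family, had 9.23, 9.37, 10.7 and 9.83 CPM against 3.34, 3.996, 2.86 and 2.54 CPM (log2 fold change 1.61, adjusted p = 2.8e-07) and passed with the cardiomyocyte covariate (log2 fold change 1.81, adjusted p = 0.014). MI+FAPI hearts had 4.04 to 5.62 CPM of Trim7, below every knockout heart. Slfn1, a growth regulator of lymphocytes and monocytes, had 3.22, 3.61, 2.54 and 3.51 CPM against 18.6, 16.4, 23.9 and 22.2 CPM (log2 fold change -2.65, adjusted p = 3.12e-08) and also passed with the covariate (log2 fold change -2.84, adjusted p = 0.000243). Ifi213, a relative of Ifi206, had 7.298, 5.45, 5.49 and 5.69 CPM against 24.7, 33.1, 38.9 and 30.4 CPM (log2 fold change -2.41, adjusted p = 3.19e-08). Members of its family resemble each other, so their split of reads is uncertain.

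Xist, the RNA that silences 1 X chromosome in female cells, had 0.515, 0.784, 2.06 and 1.44 CPM against 0.0928, 0.0773, 0.124 and 0.116 CPM (log2 fold change 3.52, adjusted p = 3.01e-05), levels of 3 to 56 counts a library. The Y-linked gene Ddx3y had 24.6, 22.8, 25.3 and 24.6 CPM against 26.6, 30.1, 28.6 and 30.2 CPM. The source of the Xist counts was not tested.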
